A study of Mus musculus with 2 samples.

Results

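Dendritic cells of psoriasiform mouse dermis were taken from a single-cell RNA library as the cells chosen by transcripts of Cd209a, a C-type lectin of dendritic cells, or Flt3, the receptor for the growth factor that sustains the dendritic lineage. A cell in which 200 to 5000 genes were found, and of whose UMIs (unique molecular identifiers, which count captured transcripts) no more than 10% were mitochondrial, was kept when Cd209a and Flt3 summed to at least 3 UMIs. It also had to hold at least 50 UMIs per 10000 of H2-Aa, H2-Ab1, H2-Eb1 and Cd74, fewer than 20 per 10000 of the C1q genes, at most 1 UMI of Cd3d, Cd3e and Cd3g, and fewer than 3 of the cell cycle genes Mki67 and Top2a. The gate held 129 of the 4721 dermal cells that passed the filter, or 2.73% (exact 95% interval 2.29 to 3.24%), of 5376 cells in the dermal library and 10634 in both libraries.

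Imiquimod, an agonist of Toll-like receptor 7, was given on the ear for 5 days to wild-type C57BL/6 mice, aged 10 weeks by the labels and younger by the methods of the study. Dermis and epidermis were then separated and each gave 1 droplet-based library. The labels speak of live cells in both layers and the methods of CD45+ live cells in the dermis, and how many animals were pooled is not stated. No untreated skin was analysed here, and with 1 library per tissue no comparison could be tested, so that all intervals are exact 95% intervals for counting error and leave out the spread between cells and animals. The dermal library held 41258087 UMIs, with a median of 6966 per cell that passed, and the epidermal library 108768396. The libraries shared 45 cell barcodes, 1 of them in a member.

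Conventional dendritic cells arise from precursors that need Flt3 ligand, take up antigen in the dermis, load its peptides onto MHC class II molecules and, once mature, follow Ccr7 to the draining lymph node to instruct T cells. The type 1 lineage depends on Irf8 and Batf3 and is known for cross-presentation on MHC class I. The type 2 lineage carries lectins such as Cd209a, Clec10a and Mgl2, and in inflamed skin it is accompanied by cells derived from monocytes that take on similar receptors. In models of psoriasis dermal dendritic cells and macrophages are known as sources of IL-23.

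The members were set beside 3 groups. C1q macrophages were 418 dermal cells with at least 50 C1q UMIs per 10000. Ly6c2 monocytes were 466 dermal cells with at least 3 Ly6c2 UMIs, at least 2 of Csf1r and Ccr2 and at most 1 of Csf3r. The monocytes also met the C1q limit of the gate. Langerhans cells were 112 epidermal cells with at least 3 Cd207 UMIs that also met the class II limit of the gate. All 3 groups met its Cd3 and cell cycle limits. Macrophages and monocytes stayed under its limit for Cd209a and Flt3. The dendritic cells were deeper, with 14337 UMIs and 2915 genes in the median cell against 10073.5, 9851.5 and 8084.5 UMIs. A gate on raw UMIs takes more cells of high depth, and depth and cell type cannot be told apart in it. Levels below are UMIs of a gene summed over a group, per 1000000 UMIs of that group (CPM), and a gene was counted as higher or lower at a 2-fold ratio of CPM with 0.5 UMI added to each sum.

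The gate genes are given as a description. Cd209a (ENSMUSG00000031494, chr8:3743397-3748984 on the reverse strand of GRCm38) was found in 99 members with 523 UMIs, 74.7% of the 700 in the dermal library. Flt3 (ENSMUSG00000042817, chr5:147330741-147400489, reverse strand) was found in 87 members with 224 UMIs, 47.9% of the 468 in the library. The sum of both had a median of 4 UMIs and a highest value of 22 per member. At the limit, 40 members held exactly 3 UMIs, and 47 cells with 2 UMIs and 81 with 1 UMI met all other limits and stayed outside. The MHC class II limit lay in a gap, as the lowest member held 53.2 UMIs per 10000 and the highest of the 4 cells left out by it held 28.5. The same held for C1q, where the highest member held 16.2 per 10000 and the 1 cell left out by it held 72.1. The Cd3 and cell cycle limits left out 4 and 6 cells, and 18 members held 1 Cd3 UMI and 20 held 1 or 2 cell cycle UMIs.

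The gate genes overlapped in part. Cd209a reached 3 UMIs with no Flt3 in 42 members and with Flt3 in 34, it was at 1 or 2 UMIs in 23, and 30 members entered on Flt3 alone. Fixed limits on other transcripts, and after them on Cd209a itself, then split the members. A mature class with at least 3 UMIs of Ccr7 and Fscn1, the receptor for lymph node homing and the actin-bundling protein fascin, took 20 members (15.5%, 9.73 to 22.9%). Among the rest, 1 cell reached 2 UMIs of Xcr1 and Clec9a, 3 reached 2 UMIs of Siglech, and none reached 2 UMIs of Cd207. At least 3 Cd209a UMIs marked 68 cells (52.7%, 43.7 to 61.6%), called the Cd209a class here. The remaining 37 were 18 cells with Flt3 and no Cd209a UMI, called Flt3-only cells, and 19 with 1 or 2 Cd209a UMIs. Of the 20 mature cells 10 held no Cd209a, which followed a split within that class given below.

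**Figure D1:**
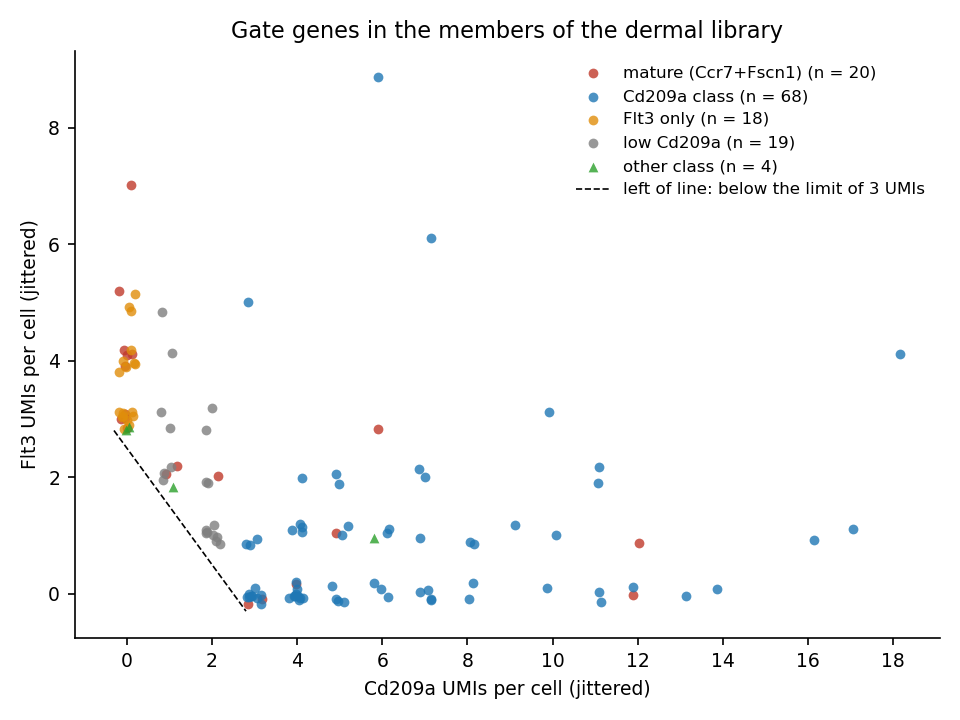
UMIs of Cd209a (x axis) and Flt3 (y axis) in each of the 129 members, jittered, with 1 point per cell and colours for the classes. The dashed line marks the limit of 3 UMIs, and the 18 Flt3-only cells stand on the left edge while the 68 cells of the Cd209a class reach 18 Cd209a UMIs.

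The label was set beside dendritic cell markers that the gate did not use. H2-DMb2, a chain of the peptide-loading chaperone H2-DM (ENSMUSG00000037548, chr17:34143307-34151555, forward strand), was found in 94 members with 532 UMIs, 38.2% of those in the library. Its level was 277 CPM (254 to 301) against 7.12 in C1q macrophages and 15.1 in Ly6c2 monocytes, ratios of 38.9 (27.3 to 57) and 18.3 (14.3 to 23.8). It was higher still in epidermal Langerhans cells, at 650 CPM, though the class II limit helped to choose these cells. Thinning to 2000 UMIs left it in 68.2% of them against 37.5% of members. Zbtb46, the transcription factor of committed conventional dendritic cells, was sparse, with 27 UMIs in 21 members, yet the library held only 88. Its CPM was 14.0 (9.25 to 20.4) against 0.216 in macrophages, where it rested on 1 UMI, and 0.838 in monocytes, a ratio over monocytes of 16.8 (5.84 to 65.9). Itgax, the integrin chain CD11c, stood at 37.4 CPM against 5.18 and 4.19. Of the 4 listed dendritic cell markers outside the gate, which were these 3 and Ciita, 4 were at least 2-fold higher in both comparisons. H2-DMb2 and Ciita serve the class II pathway whose genes the gate required. Zbtb46 reached the number of UMIs needed for a comparison through its 27 UMIs in the members. The count is therefore a description and no independent check.

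Across all genes, 986 of 9163 genes that reached 20 UMIs in the sum of the compared groups were higher in the dendritic cells than in C1q macrophages (10.8% called higher) and 1001 were lower (10.9% called lower). Against Ly6c2 monocytes 822 of 9054 were higher (9.08% called higher) and 795 lower (8.78% called lower). The gate itself used Cd209a, Flt3, the class II genes, C1q, Cd3 and cell cycle genes, so counts below leave out these genes. The comparison groups used C1q, Ly6c2, Ccr2, Csf1r and Csf3r, with limits on Cd209a, Flt3, Cd3 and cell cycle genes as well. Genes used only by the comparison gates, such as Ly6c2 and Ccr2, stay in the counts, and their values follow from those gates. The counts for each list below are read against these shares over all genes, and a count near them is no result about the list.

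Genes for presentation on MHC class II were high. Beyond the 4 gate genes, 8 of 12 measured genes for class II loading were higher and 1 lower than in macrophages (median log2 ratio 2.13, against 0.05 over all genes), and 8 were higher and 0 lower than in monocytes (1.82 against 0.08). Ciita, the master activator of class II transcription, reached 87.3 CPM (74.6 to 102) against 10.6 in macrophages and 9.63 in monocytes. H2-DMa and H2-DMb1, the other H2-DM chains, stood at 1314 and 1239 CPM, which was 5.26 times (4.91 to 5.65) and 6.96 times (6.42 to 7.54) the level in macrophages. The chains of H2-O, which modulates H2-DM, were low in both other groups. H2-Oa held 63.9 CPM (53.1 to 76.3) against 1.73 in macrophages and 5.65 in monocytes, and H2-Ob held 35.9 CPM (27.9 to 45.4) against 0.431, which rested on 2 UMIs, and 2.93. Cst3, the cystatin that restrains lysosomal cathepsins, was the most abundant of the list at 8562 CPM, 3.64 times (3.55 to 3.73) the level in macrophages. Cst3 was lower in the Cd209a class than in Flt3-only or mature cells, as given below with the genes that varied most. The proteases of the same compartment were not higher, since Ctss stood at 1487 CPM against 1931 and 1870 and Lgmn at 198 against 1531 in macrophages and 293 in monocytes.

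Because class II genes are known to share promoter elements read by Ciita and its partners, their promoters were read from RefSeq (GRCm38.p6), from 250 bases before to 50 after each start. The letters GATTGG, an inverted CCAAT box and the core of the Y box, were present on either strand in 7 of the 8 windows found, which belong to 7 of the 9 genes looked for, and in 16.1% of 32851 windows of all genes. The window without them was 1 of the pair for H2-DMa. The longer CTGATTGG, which contains them, was present in 3 of the 8 windows and in 4.10% of all windows. The stretches that hold CTGATTGG are shown because the same letters stand before H2-Oa and before the gate genes H2-Aa and H2-Eb1, 46, 51 and 62 bases from the start. They lie at chr17:34092283-34092350 on the forward strand for H2-Oa, chr17:34287857-34287924 on the reverse strand for H2-Aa and chr17:34305755-34305822 on the forward strand for H2-Eb1, each read along the gene, with the motif in capitals.
H2-Oa: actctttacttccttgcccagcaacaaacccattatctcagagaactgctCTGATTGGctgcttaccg
H2-Aa: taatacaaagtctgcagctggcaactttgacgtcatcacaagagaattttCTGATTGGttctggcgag
H2-Eb1: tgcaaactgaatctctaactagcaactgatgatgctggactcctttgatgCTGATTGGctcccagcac
The match describes these letters only and says nothing of binding in these cells.

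Presentation on class I differed less. In this list 5 of 14 genes were higher and 1 lower than in macrophages (median 0.60), and 0 were higher and 1 lower than in monocytes (0.35). Over all genes 10.8% were higher and 10.9% lower than in macrophages, and 9.08% and 8.78% than in monocytes. The 1 lower gene in each comparison is near those shares. Tap1, the peptide transporter, stood at 105 CPM against 36.2 and 58.8, and B2m, the light chain of class I, at 2314 against 3655 and 3753.

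**Figure D2:**
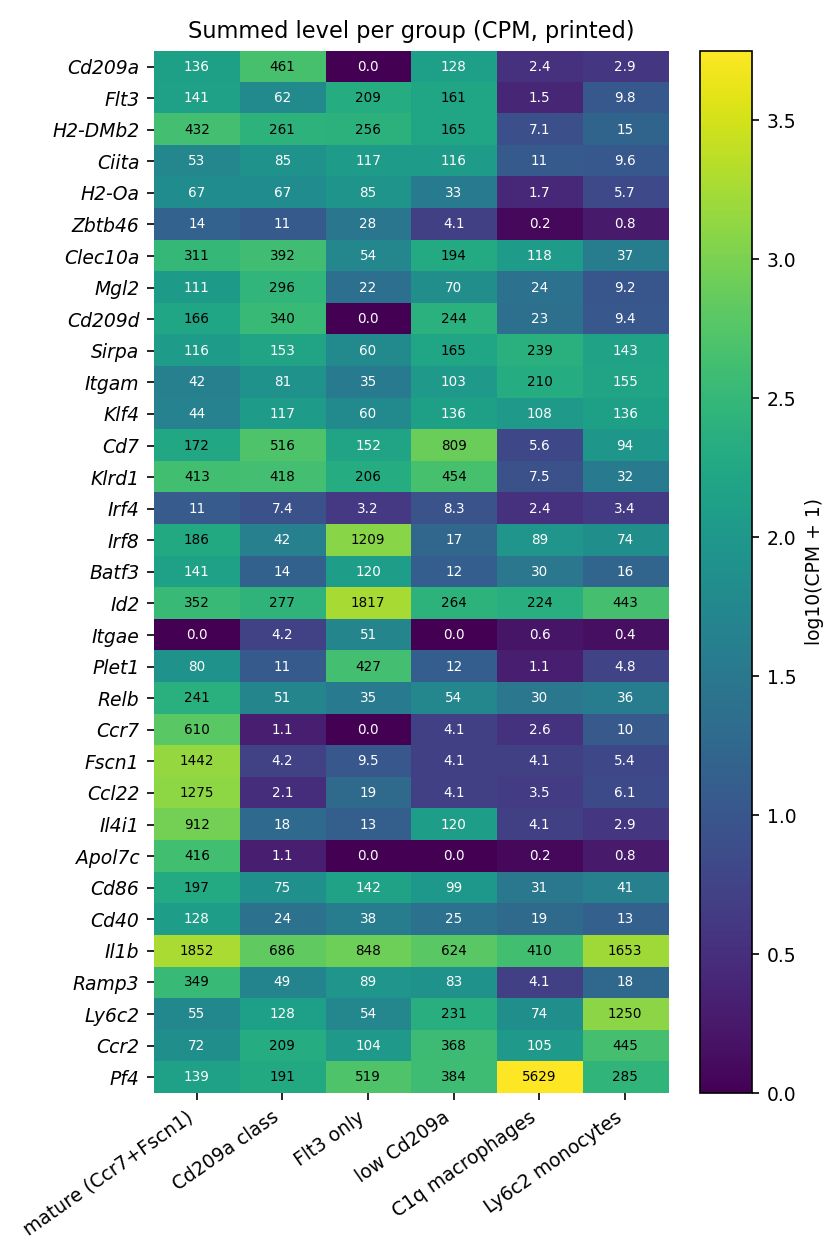
Summed level of 33 genes (rows) in 4 groups of members, C1q macrophages and Ly6c2 monocytes (columns), coloured by log10(CPM + 1), with the CPM printed in each cell. Class II loading genes are high in all 4 groups of members, Ccr7, Fscn1, Ccl22 and Apol7c in the mature column, and Irf8, Id2 and Plet1 in the Flt3-only column.

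Lectins separated the cells from their neighbours in both directions. Of 21 measured C-type lectin and scavenger receptor genes, 5 were higher and 13 lower than in macrophages (median -1.68), and of 18 measured against monocytes 5 were higher and 8 lower (-0.83). The same 5 stood high in both. Ly75, an endocytic lectin, and Cd209e and Cd209d, neighbours of Cd209a on chromosome 8, had log2 ratios over monocytes of 5.84, 6.15 and 4.67, and Mgl2 and Clec10a, the galactose-type lectins, of 4.32 and 3.01. Cd209d was found in 53 members with 466 UMIs, 43.1% of those in the library. As Cd209a, Cd209d and Cd209e are close paralogs, reads could be split between them by the counting. Cd209f, another gene of the family, was at 0 UMIs in the members, which allows up to 1.56 CPM, against 27.6 CPM in macrophages. The pattern recognition lectins and scavenger receptors lay on the other side, with Marco, Cd36 and Msr1 at log2 ratios of -5.21, -4.13 and -3.01 to macrophages and Clec4d, Clec12a and Clec4e at -2.79, -2.51 and -2.46 to monocytes.

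Receptors better known from lymphocytes were among the genes farthest above macrophages, and stood above monocytes by less. Klrd1, the CD94 chain of natural killer receptors, was found in 80.6% of members with 731 UMIs, and its level of 380 CPM (353 to 409) was 50.3 times (35.9 to 72.8) that in macrophages and 11.7 times (9.83 to 14.0) that in monocytes. Cd7, an immunoglobulin-family protein of T and natural killer cells, was found in 99 members at 442 CPM (413 to 473) against 5.61 and 94.2. Klrk1, the activating receptor NKG2D, was found in 93 members at 231 CPM (210 to 253) against 4.31 and 22. These genes were spread over many cells, as the richest member held 26, 47 and 18 UMIs of them. With each cell thinned to 2000 UMIs, Klrd1 was found in 40.6% of 128 members (32.0 to 49.7%), 1.73% of macrophages, 2.58% of monocytes and 0.513% of 195 dermal cells chosen by fibroblast genes (median 10054 UMIs before thinning), and Cd7 in 42.2%, 1.98%, 6.67% and 2.56%. Defining natural killer markers were not with them, since Klrb1c, Eomes and Prf1 were at 0 UMIs and the 8 genes of that list summed to 29 UMIs. Cd28 of the T cell list was at 0 as well, and that list reached 63.4 CPM against 33.6 in macrophages and 42.5 in monocytes, led by Il7r with 69 of its 122 UMIs. Cd3d, Cd3e and Cd3g are in that list and were limited in the members and in both comparison groups. The low sum therefore follows in part from the gates.

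Other genes were chosen only for their rank, so their height is a description. Ranks of higher genes were taken among those with at least 100 UMIs in the members. Among the 15 highest over all other dermal cells were Sept3 at 71.7 CPM against 4.89, Ctnnd2, a catenin, at 57.2 against 4.20, Ppp1r14a, an inhibitor of myosin phosphatase, at 98.2 against 10.3, and Bcl11a, a factor of lymphoid and dendritic precursors, at 52.0 against 6.34. Ppp1r14a was also among the 10 highest over macrophages. Over monocytes it was among the 10 highest with Tbc1d4 and Zmynd15, at log2 ratios of 4.45, 4.40 and 4.69. Zmynd15 rested on the mature class, and its log2 ratio over macrophages without those cells was -2.07.

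The factors of lineage went apart from the macrophage program. Of 27 measured transcription factors 14 were higher and 4 lower than in macrophages (median 1.14), and 9 were higher and 6 lower than in monocytes (-0.01). Maf, a factor of macrophage identity, stood at 10.9 CPM against 261 in macrophages. All 11 macrophage markers outside the gate were lower than in macrophages (median -3.72) and 5 of 10 lower than in monocytes. Pf4, the most abundant of them, stood at 258 CPM against 5629 and 285. The macrophages were chosen by C1q and the monocytes limited in it, so both counts depend in part on those gates. The monocyte markers stood between. Of 10, 4 were higher and 2 lower than in macrophages, and 0 higher and 8 lower than in monocytes. Summed, they stood at 3230 CPM in the cells with low Cd209a, 1634 in the Cd209a class, 1225 in Flt3-only cells and 929 in mature cells. Plac8 held 702 CPM against 200 in macrophages and 3889 in monocytes, Ccr2, the receptor for exit from the marrow, 181 against 105 and 445, and Ly6c2 was found in 68 members. Ly6c2 and Ccr2 belong to the monocyte list and chose the monocytes. Their levels against monocytes, and their part in that count, follow from that gate. Chil3, the farthest below monocytes by ratio, and Hp and Lyz2, also among the 10 lowest, were 42.2, 15 and 14 times as high in monocytes. The other 7 of those 10 were Plcb1, Prtn3, Klra2, Ngp, Wfdc21, F10 and Mmp8, at log2 ratios from -4.62 to -3.81. Beside Cd209f, Marco, Maf and Ccl8, the 10 farthest below macrophages were Cxcl13 (-6.11), a chemokine for B cells, Slc13a3 (-5.34), Lpl (-4.98), Cbr2 (-4.88), Syngr1 (-4.73) and Ccl12 (-4.70).

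The Flt3-only cells and the Cd209a class differed in a factor of the type 1 lineage and in lectins of the type 2 lineage. Irf8 (ENSMUSG00000041515, chr8:120736358-120756694, forward strand), the factor of the type 1 lineage, ran from 0 to 34.3 UMIs per 10000 with a median of 9.68 in the 18 Flt3-only cells, and from 0 to 6.62 with a median of 0 in the 68 cells of the Cd209a class. The ranges overlapped at the low end, while 12 of the 18 and 1 of the 68 reached 5 per 10000. Summed, Irf8 stood at 1209 CPM against 42.3, a ratio of 28.6 (20.6 to 40.7). Clec10a ran the other way, from 0 to 2.66 with a median of 0 in Flt3-only cells and from 0 to 22.6 with a median of 1.84 in the Cd209a class. Its summed level was 7.28 times (4.49 to 12.6) as high in the Cd209a class, and that of Mgl2 13.3 times (6.39 to 33.5). Over all members 17 reached 5 per 10000 of Irf8, 27 reached it for Clec10a and 0 reached it for both.

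**Figure D3:**
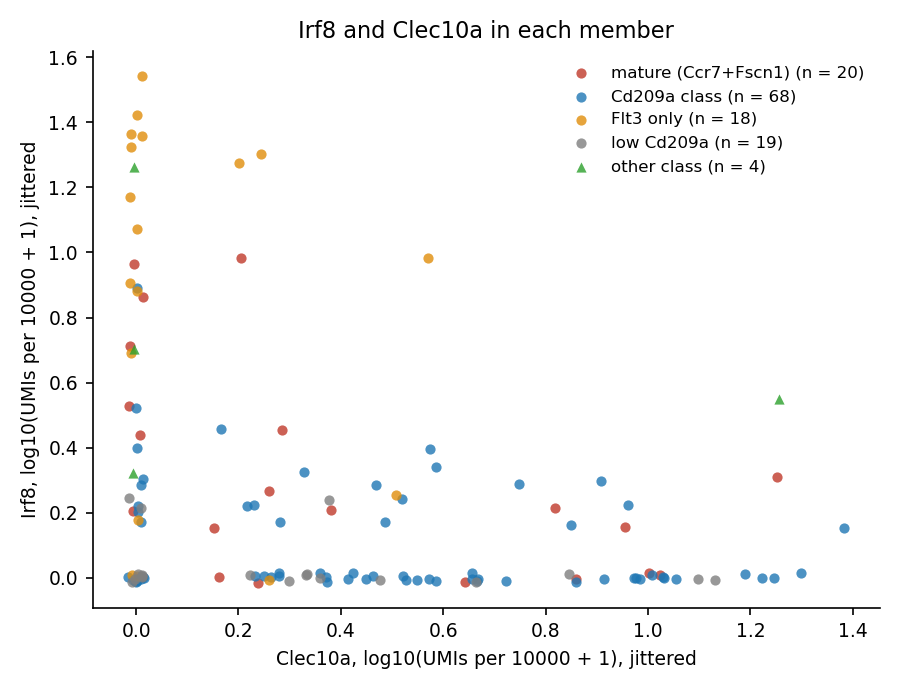
Irf8 (y axis) against Clec10a (x axis) in each of the 129 members, as log10 of UMIs per 10000 plus 1, jittered, with 1 point per cell. Flt3-only cells rise along the y axis up to 34.3 per 10000 of Irf8 and cells of the Cd209a class lie along the x axis up to 22.6 of Clec10a.

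Other genes differed between these classes too. Id2, the inhibitor of helix-loop-helix factors needed by type 1 cells, stood at 1817 CPM in Flt3-only cells against 277 in the Cd209a class, a ratio of 6.56 (5.66 to 7.63), and Batf3, the partner of Irf8, at 120 against 13.7, a ratio of 8.76 (4.56 to 17.9). Plet1, a surface protein of intestinal and skin epithelium and of some dendritic cells, stood at 427 against 10.6 (ratio 40.5, 21.3 to 86.3), Naaa, a lysosomal amidase of type 1 cells, at 700 against 149 (4.70, 3.78 to 5.84), Cd24a at 497 against 86.6 (5.74, 4.36 to 7.59), and Itgae, the CD103 chain, at 50.6 against 4.23 on 16 and 4 UMIs (12, 3.87 to 49.3). The defining type 1 receptors were nearly absent, with Xcr1 at 2 and Clec9a at 8 UMIs over all members, of 19 and 39 in the library. Higher in the Cd209a class were Cd7 (3.39 times, 2.52 to 4.66), Sirpa, the inhibitory receptor of type 2 cells (2.55 times, 1.57 to 4.35), Zeb2 (4.19 times, 2.13 to 9.40) and Csf1r (3.11 times, 1.75 to 6.00). H2-DMb2 did not part them, at 256 and 261 CPM with a ratio of 0.983 (0.755 to 1.27). Irf4, the factor of the type 2 lineage, had 14 UMIs in all members, too few to compare.

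Some of this split rested on few cells. Stfa2, a stefin that inhibits cathepsins, gave 481 of its 485 UMIs in 6 Flt3-only cells, and 305 of them in 1 cell. Its near copy Stfa2l1 and the thioredoxin-domain gene Txndc16 also led the remaining 37 cells (Flt3-only or low in Cd209a), with 150 and 54 UMIs there against 23 and 9 in the other members. Cx3cr1, the fractalkine receptor, gave 264 of its 315 UMIs in 20 cells of the Cd209a class, with 138 in 1 cell. The 3 cells with at least 2 UMIs of Siglech, a lectin of plasmacytoid cells found as 1 UMI in 5 further members, led with Bst2 at 1880 CPM. Cd7, Plac8, Hsp90aa1 and Psap followed in these cells, and the single type 1 cell was led by Psap, Id2, Psmb8, Cst3 and Eif5a. Over all members the plasmacytoid list gave 521 CPM against 362 in macrophages and 1561 in monocytes, with Klk1 at 0. Of that list 3 of 5 genes were higher and 0 lower than in macrophages, and 3 of 7 higher and 1 lower than in monocytes. The list holds Ly6c2, which chose the monocytes, so its height in them follows in part from their gate. The type 1 and type 2 lists counted 4 of 6 and 4 of 6 genes higher than in macrophages, and 4 of 6 and 4 of 6 higher than in monocytes, with Itgam the only one lower, in both.

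The mature class was set by Ccr7 and Fscn1, genes of dendritic cells that migrate to the lymph node, and these are given as a description. Ccr7 ran from 0 to 26.7 UMIs per 10000 (median 5.17) in the 20 cells and Fscn1 from 0 to 52.3 (0.75), while 100 of all 129 members held neither gene and 5 members entered with only 3 or 4 UMIs. The class was mixed, since 10 of its 20 cells had no UMI of Fscn1 or of Ccl22 and the other 10 had both. Cd209a went with this split. It was absent from nearly all cells with both genes and present in nearly all cells with neither. The class depended on the gate, as a limit of 3 UMIs of Cd209a and Flt3 per 10000 in place of 3 UMIs per cell gave 5.81% mature cells. Ccl22, the chemokine that draws Ccr4-bearing T cells, gave 460 of its 469 UMIs in 10 mature cells, at 1275 CPM against 5.76 in the other members, and 4 mature cells reached 5 Ccl22 UMIs per 10000. Il4i1, a secreted amino acid oxidase, stood at 912 CPM there, 28.0 times (20.8 to 38.3) the level in the other members, and Apol7c and Tnfrsf9 gave 150 of 151 and 149 of 150 UMIs in mature cells. Relb, the NF-kB subunit of mature dendritic cells, was 5.24 times (3.79 to 7.26) as high, Cxcl16 6.83 times (5.6 to 8.35) and the fatty acid carrier Fabp5 9.83 times (9.15 to 10.6), although 877 of 3533 Fabp5 UMIs came from 1 cell.

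Over all members, 15 of 19 mature genes were higher and 0 lower than in macrophages (median 4.15), and 14 were higher and 1 lower than in monocytes (3.48). Without the 20 mature cells the medians were 0.70 and -0.024, and the log2 ratios over monocytes of Ccr7, Ccl22, Ccl5 and Fscn1 went from 3.51, 5.30, 1.13 and 5.63 to -2.67, -0.024, -2.30 and -0.029. Ccr7 and Fscn1 set the mature class, so their fall followed from the choice of cells. Langerhans cell markers moved with this class, as their 7 genes summed to 1536 CPM in mature cells, 170 in the Cd209a class and 601 in Flt3-only cells. In Flt3-only cells most of that sum was Cd24a, which is in the type 1 list as well. Over all members the Langerhans list was led by Mfge8 with 496 of its 572 UMIs in 11 mature cells, and 1 member held 23.4% of the list's UMIs. Cd207, which defines Langerhans cells, had 6 UMIs, all in 3 mature cells with at most 4 each, against 1121 CPM in epidermal Langerhans cells. The part of such cells in the mature class was not tested. Of the Langerhans list 5 of 7 genes were higher and 0 lower than in macrophages, and 4 of 6 higher and 1 lower than in monocytes.

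Costimulatory ligands were higher in the members than in both neighbours for several genes, with more again in the mature class. Of 13 measured costimulatory and coinhibitory ligands 8 were higher and 1 lower than in macrophages (median 1.52), and of 12 against monocytes 5 were higher and 1 lower (0.31). Cd86, the CD28 ligand, was found in 70 members at 110 CPM (95.9 to 126), 3.57 times (2.88 to 4.45) the level in macrophages and 2.66 times (2.18 to 3.24) that in monocytes. Cd40 stood at 45.7 CPM (36.7 to 56.4) against 19 and 13, Cd83 at 120 against 18.5 and 45.4, and Pdcd1lg2, the PD-1 ligand PD-L2, at 19.8 against 1.73 and 3.35. Mature cells held 2.18 times (1.62 to 2.92) the Cd86, 4.75 times (3.06 to 7.39) the Cd40 and 6.5 times (4.96 to 8.56) the Cd83 of the other members. Without the mature cells Cd40 stood at 26.9 CPM and was no longer 2-fold above macrophages, and Cd83 stood at 58.9 and was no longer 2-fold above monocytes, while Cd86 and Pdcd1lg2 kept both calls. Cd80 had 12 UMIs in all, and Vsir, an inhibitory ligand, was lower in both comparisons, at log2 ratios of -1.11 and -1.61.

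Cytokine transcripts were on the low side. Of 13 measured genes 2 were higher and 6 lower than in macrophages (median -0.92), and of 14 against monocytes 1 was higher and 8 lower (-1.14). Il1b was the most abundant, found in 116 members at 908 CPM (866 to 952), between 410 in macrophages and 1653 in monocytes, and it reached 1852 CPM in mature cells. Thinned to 2000 UMIs it was found in 53.1% of members but also in 25.1% of the cells chosen by fibroblast genes and 94.7% of 282 cells (median 6997.5) chosen by Csf3r, a neutrophil receptor. Tnf stood at 28.6 CPM (21.5 to 37.2) against 54.3 and 110, Il6 at 13 (8.41 to 19.2) against 10.4 and 72.7, and Il10 at 11.4 (7.17 to 17.3) against 31.1 and 51.7. Il23a, the IL-23 subunit, had 3 UMIs in 3 members of 353 in the library, and Il12b, the subunit that IL-23 shares with IL-12, had 0 of 29. With 1923816 UMIs in the members, a gene at 0 allows up to 1.56 CPM, as 3 UMIs would give. Ltb, the lymphotoxin chain, stood highest relative to both neighbours, at 41.6 CPM against 12.3 and 19.5.

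Chemokines were split in the same way. Of 20 genes 3 were higher and 10 lower than in macrophages (median -0.92), and of 19 against monocytes 4 were higher and 12 lower (-1.11). The high ones were Ccl22, Ccl17 and Ccl19 against macrophages, and Ccl22, Ccl17, Cxcl16 and Ccl5 against monocytes. Without the mature cells Ccl22 was 2-fold higher in neither comparison, and Cxcl16 and Ccl5 were not 2-fold above monocytes. Among chemokines known to recruit monocytes or neutrophils, Ccl2 stood at 47.8 CPM against 579 and 199, and Cxcl2 at 245 against 573 and 2318. Ccl8 stood at 83.7 against 2394 and 105, less than 2-fold below monocytes. Of 10 chemokine receptors 3 were higher and 2 lower than in macrophages, and of 9 against monocytes 2 were higher and 3 lower. Ccr7 and Gpr183, the oxysterol receptor that positions dendritic cells, were among the high ones in both. Ccr7 defines the mature class, and without those cells its log2 ratios turned to -0.75 and -2.67.

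**Figure D4:**
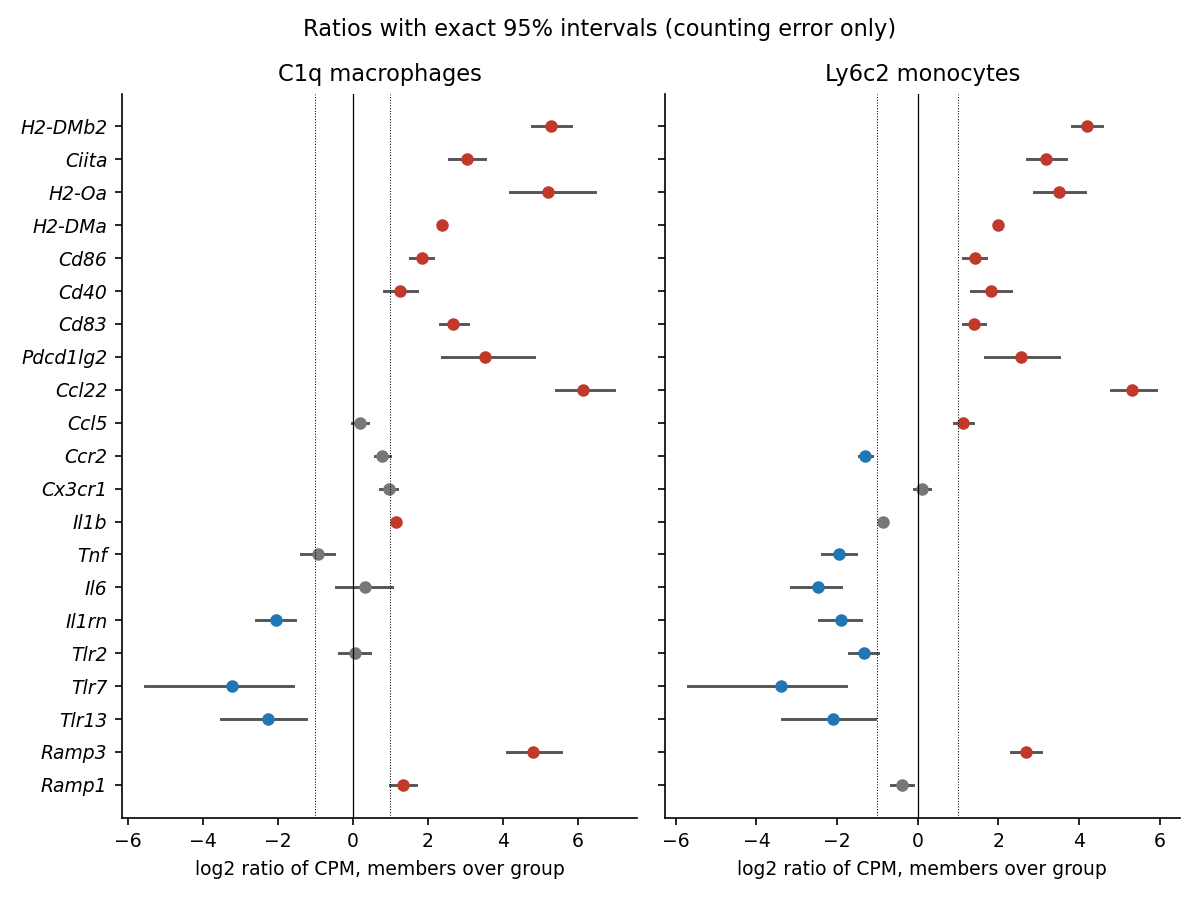
Log2 ratio of CPM for 21 genes (rows), members over C1q macrophages (left) and over Ly6c2 monocytes (right), with points for the ratio, bars for exact 95% counting intervals and dotted lines at 2-fold. H2-DMb2, H2-Oa, Ccl22 and Ramp3 lie to the right in both panels and Tlr7, Tlr13 and Il1rn to the left.

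Tlr7, the receptor that imiquimod engages, was nearly absent. It had 3 UMIs in 3 members, 1.56 CPM (0.322 to 4.56), against 14.4 in macrophages and 16.3 in monocytes, ratios of 0.108 (0.0217 to 0.329) and 0.0955 (0.0193 to 0.289), and the library held 382. Tlr4 had 3 UMIs as well, Tlr9 0 and Tlr13, a receptor for bacterial ribosomal RNA, 8. Tlr2 stood at 39.0 CPM, level with macrophages at 37.5 (ratio 1.04, 0.782 to 1.37) and below monocytes at 98.2. Of 17 measured receptors and adaptors 1 was higher and 8 lower than in macrophages, and of 16 against monocytes 0 were higher and 6 lower. Unc93b1, which carries the nucleic acid receptors to endosomes, was present at 166 CPM. Of 24 interferon-stimulated genes 3 were higher and 6 lower than in macrophages, beside 10.8% and 10.9% of all genes, and 1 was higher and 6 lower than in monocytes, beside 9.08% and 8.78%. Ifi205 stood out at 135 CPM, with log2 ratios of 3.81 and 3.04.

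Receptors for neural signals held calls in both directions. Ramp3, which turns the calcitonin-like receptor into an adrenomedullin receptor, was found in 43 members with 220 of the 1130 UMIs in the library. Its level of 114 CPM (99.7 to 131) was 27.9 times (17.4 to 47.2) that in macrophages and 6.42 times (4.98 to 8.35) that in monocytes, and mature cells held 5.81 times (4.41 to 7.67) as much as the other members. Ramp1, the partner for the neuropeptide CGRP, stood at 73.8 CPM against 29.1 in macrophages and 96.5 in monocytes. Calcrl, the receptor that both need, had 9 UMIs in 8 members. Of 9 measured genes 5 were higher and 2 lower than in macrophages (median 1.34), and of 10 against monocytes 4 were higher and 3 lower (0.16).

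The remaining lists are read against the same shares over all genes, 10.8% higher and 10.9% lower than in macrophages and 9.08% and 8.78% than in monocytes. Of 27 cytokine and growth factor receptors 6 were higher and 6 lower than in macrophages, and 2 higher and 2 lower than in monocytes, the latter near those shares. Kit, the stem cell factor receptor, and Il7r were higher in both, and Csf2rb, the chain for GM-CSF, stood at 129 CPM against 45.5 and 99.9. Of 17 cholesterol and lipid genes 2 were higher and 7 lower than in macrophages, and 6 were higher and 6 lower than in monocytes, where Apoe (log2 ratio -2.30) was the lowest and Fabp5 (2.31) the highest. Without the mature cells Fabp5 stood at 692 CPM against 369 in monocytes, under the 2-fold limit. Cyp51 and Srebf2, an enzyme and the main activator of cholesterol synthesis, were higher in both comparisons. Of 23 migration and cytoskeleton genes 8 were higher and 2 lower than in macrophages, and 2 higher, near the share over all genes, and 4 lower than in monocytes.

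**Figure D5:**
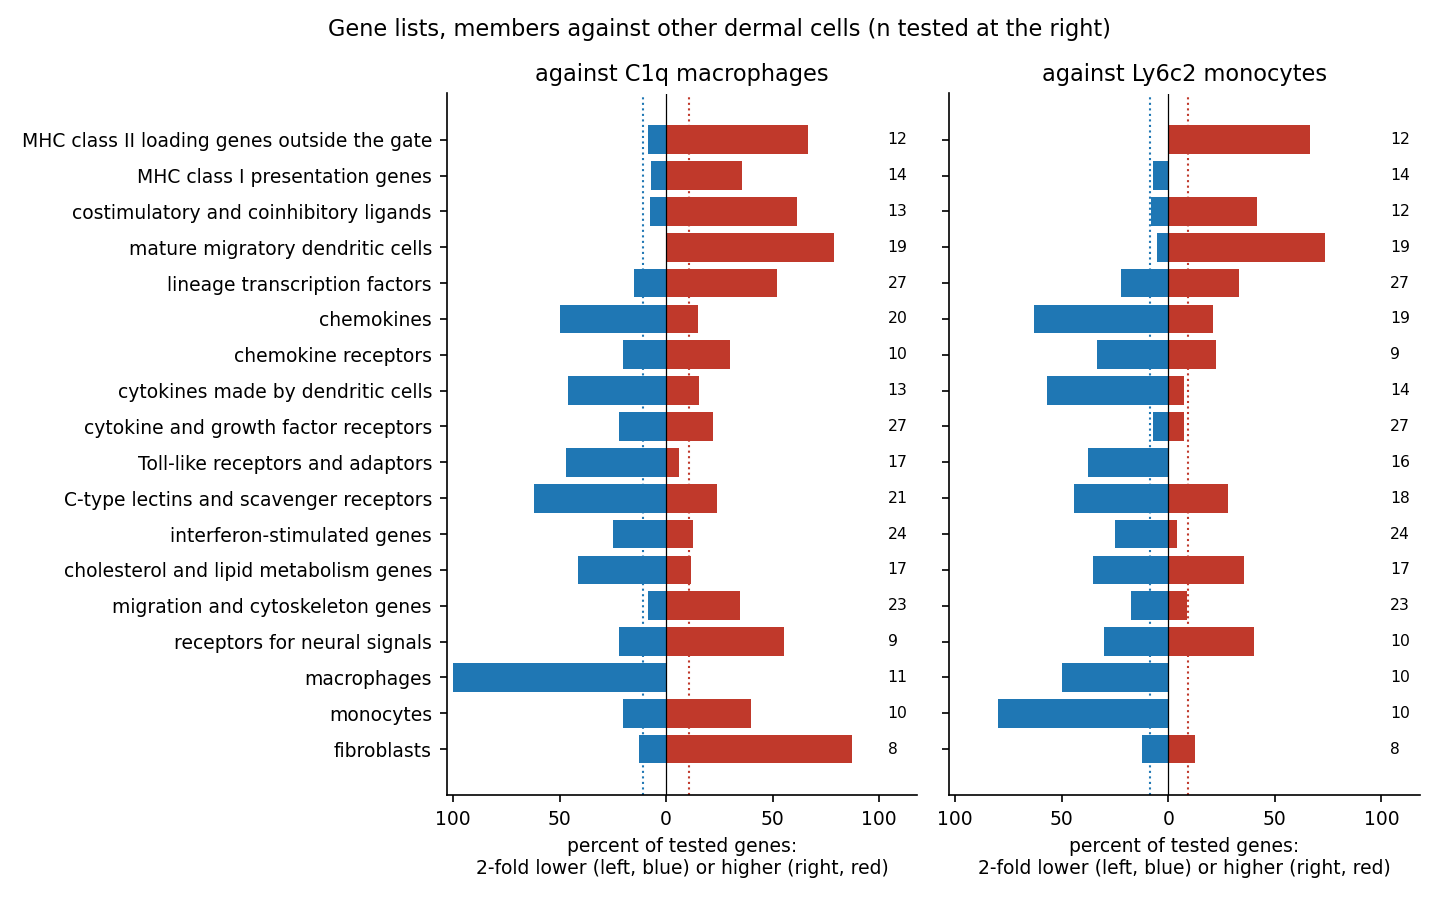
Percent of measured genes in each list that were at least 2-fold higher (red, right) or lower (blue, left) in the members than in C1q macrophages (left panel) or Ly6c2 monocytes (right panel), with the number measured beside each bar and dotted lines for the percent over all genes. Among the lists drawn, the class II loading and mature lists extend farthest to the right in both panels, apart from the fibroblast list against macrophages, and the macrophage list farthest to the left in the left panel.

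Transcripts of other cell types were present and moved with some of these results. The 8 fibroblast markers summed to 1361 UMIs, or 707 CPM against 268 in macrophages and 483 in monocytes, and 7 of 8 were at least 2-fold higher and 1 lower than in macrophages, 1 higher and 1 lower than in monocytes. Dcn, the proteoglycan decorin, gave 714 UMIs in 91 members, 1 member held 21.2% of the fibroblast UMIs, and 5 members held at least 20 per 10000. In the Cd209a class this list reached 1045 CPM, in the 19 cells with low Cd209a 974.7, in Flt3-only cells 180 and in mature cells 175. Without the 5 members the log2 ratio of Dcn over macrophages went from 1.56 to -0.36, and the number of genes 2-fold higher than in macrophages was 969 in place of 986. Thinned to 2000 UMIs, Dcn was found in 15.6% of members, 18.8% of macrophages and 17.2% of monocytes. Mucl1, Dmkn and Apod were among the genes that led the Cd209a class over other members, and 68 of 71 Mucl1 UMIs lay in 1 cell. Neutrophil markers were in every member, at 2214 CPM summed against 3252 in macrophages and 7523 in monocytes, with S100a8 and S100a9 in all 129, and of 9 genes 1 was higher and 4 lower than in macrophages, 1 higher and 7 lower than in monocytes. The part of these transcripts in the results was not tested.

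The other marker lists were low. Keratinocyte genes gave 32.7 CPM, with Krt1, Krt16, Dsp, Lor and Flg at 0, mast cell and basophil genes 113, B and plasma cell genes 109 with Jchain at 0, and endothelial genes 29.6 with Cdh5 and Prox1 at 0. Against macrophages 1 of 2 keratinocyte, 1 of 7 mast cell and basophil, 1 of 4 T cell, 0 of 2 natural killer, 0 of 2 B cell and 0 of 3 endothelial genes were higher, and 0, 1, 0, 0, 1 and 1 lower. Against monocytes these were 1 of 1, 1 of 8, 1 of 4, 0 of 2, 0 of 2 and 1 of 3 higher, and 0, 2, 0, 0, 0 and 0 lower.

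The genes that varied most from cell to cell were of both kinds, some found in few thinned members (Stfa2 in 4, Cx3cr1 in 6, Ccl22 in 7) and others in nearly all (Cst3 in 127, Tmsb4x and Actb in 128). In the 128 members that reached 2000 UMIs and were thinned to that number, the variance over the mean was largest for Saa3 (52.8), an acute-phase protein, followed by Cx3cr1 (38.1), Fabp5 (29.6), Cst3 (21.7), Ccl22 (15.1), Tmsb4x (14.8), Mfge8 (14.8), Stfa2 (13.9), Hspa1a (13.8) and Actb (12.1), against a median of 1.06 over 2079 genes and the value of 1 that counting alone gives. Saa3 was found in 126 members, yet 763 of its 1868 UMIs came from 1 cell. Cst3 instead differed by class, at 19652 CPM in Flt3-only cells, 12986 in mature cells and 4532 in the Cd209a class. Hspa1a, a heat-shock gene, was in all 129 members at 7691 CPM against 2133 in macrophages and 8093 in monocytes.

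Langerhans cells of the epidermal library gave the nearest dendritic population, but library and cell type cannot be told apart. The class II limit helped to choose these cells too. H2-DMb2 was higher there, at 650 CPM, and Cd86 at 186, while Cd209d, Tspan13 and Plac8 were at 0 UMIs in them and at 242, 268 and 702 CPM in the dermal members. Clec10a stood at 2.11 CPM in Langerhans cells, and Ccl17 at 1092 against 53.5 in the dermal members. Krt14, a keratin of keratinocytes, had 3214 CPM in Langerhans cells and 2.08 in the members. Lgals7, Krtdap, Krt5 and Krt16, also of keratinocytes, were the others of the 5 farthest below Langerhans cells, and Saa3 and Ifitm6 stood with Plac8, Tspan13 and Cd209d among the 5 farthest above.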

How the data were processed

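The authors deposited 1 matrix of UMI counts per tissue, genes by cell barcodes, written by Cell Ranger 3.0.2 per the file headers and aligned to mm10 per the submitters' processing notes. No cell annotation was used. The counts were read as deposited in Python 3.11.15 through pandas 2.3.3 and scipy 1.17.1, with numpy 2.4.6 for arithmetic and matplotlib 3.10.9 for drawing. Of 31053 gene IDs, 30934 were found in GENCODE M21, which gave positions on GRCm38. A cell passed with 200 to 5000 genes and no more than 10% of its UMIs mitochondrial, where the study's methods set 5%. Members, comparison groups and classes were defined by UMI limits, with no clustering. UMIs were summed per group and given as CPM, with exact Poisson intervals for sums, exact conditional intervals for ratios and Clopper-Pearson intervals for shares, all at 95%. These cover counting error only. A gene entered a comparison at 20 UMIs in the sum of both groups and was counted as higher or lower at 2-fold, with a pseudocount of 0.5 UMI. For shares, each cell was thinned to 2000 UMIs and shallower cells were left out. Cells chosen by fibroblast genes held at least 50 UMIs of Col1a1, Col1a2 and Dcn and no Ptprc, cells chosen by Csf3r held at least 3 UMIs of it, and both held fewer than 3 of Cd209a and Flt3.

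The members, gene lists and limits were chosen with earlier results of these data known, so counts over lists are descriptions. Genes were named by rank: from each list at most 6 by level or ratio, the 15 highest over other dermal cells, the 10 highest and lowest against macrophages and monocytes, 5 each way against Langerhans cells, 5 per class and the 10 with the largest variance over mean. Ranks of genes higher in the members took those with at least 100 UMIs there, and ranks per class those with at least 50 UMIs in the class. Other named genes were chosen after their values were seen. Of 419 list genes, 3 (Ifi30, Clec7a and Mx2) were not analysed here. Doublets were kept. Scrublet in scanpy 1.11.5 called 1 of 5376 dermal cells with its own threshold, so as an alternative 231 cells were removed from the top of its score, 4 of them members. The calculations were tested on simulated data. Promoter sequences came from RefSeq.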

Additional observations from a re-analysis of the deposited data

Results flagged for a closer look

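The epidermal library was not used to choose members, yet 5 of its 3277 cells that passed the filter met the same gate (0.153%, exact 95% interval 0.0496 to 0.356%). They held 30 UMIs of Cd209a in all 5 cells, 6 of Flt3, 17 of Clec10a, 14 of Irf8 and 27 of H2-DMb2 in 4 cells, with 1 UMI of Cd207. Krt14, a keratinocyte keratin, had 180 UMIs and was in all 5. There is no control library, and whether these cells came from the epidermis was not tested.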

How the results depend on the processing

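With 1 library per tissue there is no spread between animals, and every interval covers counting error alone. No paired analysis was possible because a single library stands for each tissue. Alternatives that left out the mature class, the fibroblast-rich members or the member richest in a gene were chosen after seeing the data. A limit of 5 UMIs of Cd209a and Flt3 left 60 members. Against macrophages, genes called higher and lower were 417 and 451 with at least 100 UMIs, 2888 and 2128 with no minimum and 494 and 509 with cells thinned to 2000 UMIs; against monocytes they were 292 and 390, 2676 and 1942, and 420 and 526. The thinned and 100-UMI settings tested fewer genes.

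The Cd209a class was 38.6% and the remainder 41.5% at a limit of 2 UMIs, and 76.7% and 11.7% at 5 UMIs, where type 1 was 0%. At 3 UMIs per 10000, mature was 5.81%, type 1 0% and the Cd209a class 64.0%. With class limits raised by 1 UMI, type 1 and plasmacytoid were 0% and the remainder 42.6%. Thinned to 1000 UMIs and not thinned, shares of members with a UMI were 18.6% and 72.9% for H2-DMb2, 32.6% and 76.7% for Cd7, 3.10% and 15.5% for Ccr7, and 6.98% and 33.3% for Ramp3, so shares depend on depth.

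Directions that turned were few. At 3 UMIs per 10000 the log2 ratio of Stfa2 was -0.54 to macrophages and -1.60 to monocytes, and that of Ccl5 to monocytes -1.90, or -2.88 at 5 UMIs. Without the mature class Ccr7 was -0.75 and Zmynd15 -2.07 to macrophages, and Ccr7 was -2.67, Ccl22 -0.024, Ccl5 -2.30, Fscn1 -0.029 and the mature list's median -0.024 to monocytes. For Ccr7 and Fscn1, which set that class, the turn followed from the choice of cells. Without the fibroblast-rich members Dcn was -0.36 to macrophages, and with thinned cells Ngp was 1.01 to macrophages. The cause was not tested beyond the members each setting left out. Among values for single genes and lists, 2572 kept their side of the 2-fold limit, 114 crossed it and 5 of those past it changed sign under the first set of alternatives, and 627, 46 and 8 under those added later.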
